A study of Mus musculus with 6 samples.

Results

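The cytotoxic granule genes examined here are 10 genes chosen by name: the granzymes *Gzma*, *Gzmb* and *Gzmk*, the pore-forming protein gene *Prf1*, the granule proteoglycan gene *Srgn*, the granule membrane protein gene *Nkg7*, the cathepsin gene *Ctsw*, the chemokine gene *Ccl5*, and the CD8 subunit genes *Cd8a* and *Cd8b1*, which mark RNA of CD8+ T cells. Of these 10 genes, 9 had values among the 12153 genes measured, and *Cd8a* was not analysed here. Expression was measured by RNA-Seq in 6 libraries of Tregs sorted from B16.F10 melanoma tumors at day 15 after inoculation. The 3 control libraries came from mice labelled Nr3c1-flox, and the 3 Nr3c1-Foxp3Cre libraries from mice labelled Nr3c1-flox with Foxp3-YFP/Cre, in which Cre driven by the *Foxp3* promoter deletes the floxed gene of the glucocorticoid receptor (GR) in Tregs. Both groups therefore carried floxed *Nr3c1*, and the labels give the YFP/Cre allele to the Nr3c1-Foxp3Cre mice alone. The labels describe a sort on CD45, CD4 and CD25, whereas the study's methods describe a sort on Foxp3-YFP. In those methods cells positive for CD11b, CD11c, B220, NK1.1 or TCR-γδ were excluded and CD8β was stained. A difference in sorting between the groups therefore cannot be told apart from genotype. The labels give no age for the mice and do not say whether a library pools animals.

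Cytotoxic lymphocytes store granzymes, which are serine proteases, in secretory granules together with perforin, which lets them into a target cell, and serglycin, the proteoglycan on which they are packed. Tregs, which restrain other lymphocytes, can also make granzyme B and perforin, and in tumors they have been shown to use them against CD8+ T cells and NK cells. Glucocorticoids act through GR, a ligand-activated transcription factor.

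The values are log2 CPM (counts scaled to library size) that the authors quantile normalized across the libraries, so that 1 unit is a doubling. Read depth is unknown, and the number of libraries limits the precision. *Nr3c1* had a log2 fold change of -1.38 in Nr3c1-Foxp3Cre against control Tregs (SE, the standard error, 0.21, limma adjusted p = 0.120) and the glucocorticoid-induced gene *Tsc22d3* one of -1.56 (SE 0.16, limma adjusted p = 0.0342), both without overlap between the groups. Of all 12153 genes, 7, or 0.0576%, passed a limma adjusted p of 0.05, 396, or 3.26%, had an unadjusted p under 0.05, and 901, or 7.41%, had groups that did not overlap. The T cell genes *Cd3d*, *Cd3e*, *Cd3g* and *Cd4* were present at 8.64 to 9.82 log2 CPM in all 6 libraries and *Foxp3*, the defining Treg gene, at 3.39 to 4.47.

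None of the 9 granule genes passed a limma adjusted p of 0.05, against 0.0576% of all genes in either direction and 0.0494% in the lower one, and 8 of them had lower means in Nr3c1-Foxp3Cre Tregs, against 50.5% of all genes below 0. Their median log2 fold change was -0.30, against -0.0014 over all genes. The 9 genes were read in the same libraries and are not independent of one another. They were also chosen with earlier results of these data known, and the study had named *Prf1* and *Srgn* as underexpressed without GR. The count of lower means and the median are therefore descriptions and not independent support for a difference. An unadjusted limma p under 0.05 was found for 2 of them, *Gzmk* and *Nkg7*, against 3.26% of all genes, and 1, *Gzmk*, separated the groups without overlap, against 7.41% in either direction and 3.73% in the lower one. On the deposited scale every control value of *Gzmk* lay above, and every Nr3c1-Foxp3Cre value below, the CPM limit of the authors' gene filter. *Gzmk* may thus have stayed among the genes measured only through the control group, so its place in these counts is a description. Summed over the 9 genes, the granule genes took 1793, 2277 and 2006 CPM in the control libraries and 1586, 1467 and 1841 CPM in the Nr3c1-Foxp3Cre libraries. The ranges overlapped, because Nr3c1-Foxp3Cre replicate 3 lay above control replicate 1. In each library the largest parts of the sum were *Nkg7*, *Srgn* and *Gzmb*, at 822, 553 and 250 CPM in control replicate 1. *Gzma* and *Gzmk* were at 1.25 and 1.49 CPM there, so the sum says little about the low genes. In bulk RNA such as this, fewer cells expressing a gene and less RNA per cell cannot be told apart.

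**Figure D1:**
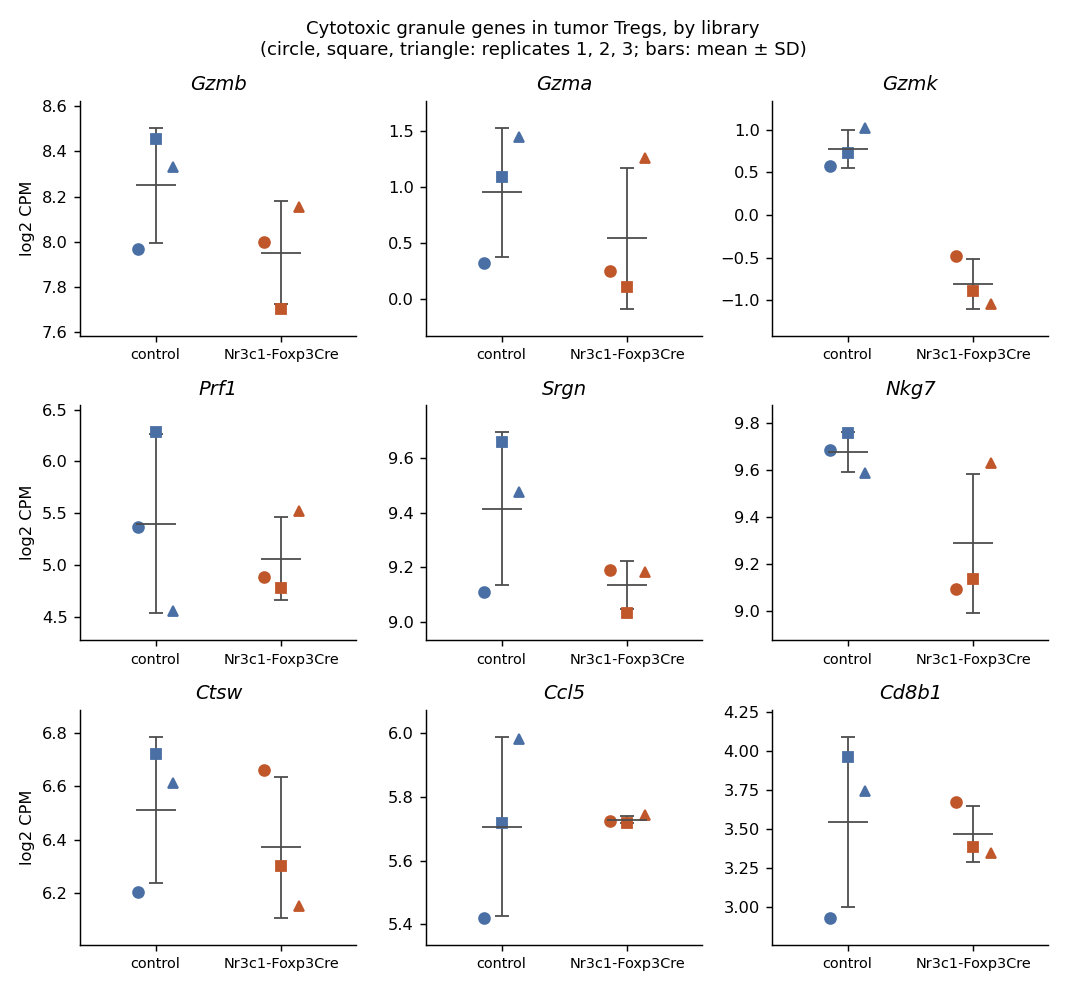
Log2 CPM of each of the 9 granule genes in the 3 control and 3 Nr3c1-Foxp3Cre libraries, with a point for each library and bars for the mean and SD of each group. Only the *Gzmk* panel shows groups without overlap, and in the *Ccl5* panel the Nr3c1-Foxp3Cre libraries lie between 5.72 and 5.74.

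To compare levels between genes, each value was divided by the length of the gene's longest coding transcript in GENCODE M21, giving log2 CPM per kb. On this scale *Nkg7* was highest at 9.66 ± 0.29 (SD, n = 6 libraries), followed by *Srgn* at 8.49 ± 0.24, *Gzmb* at 7.58 ± 0.27, *Ccl5* at 6.63 ± 0.18 and *Ctsw* at 6.13 ± 0.25. *Prf1* followed at 3.93 ± 0.63, *Cd8b1* at 2.94 ± 0.36, *Gzma* at 0.76 ± 0.58 and *Gzmk* at -0.40 ± 0.90. This order was the same within each of the 6 libraries. Across libraries the ranges of 3 pairs of neighbours in the order overlapped: *Ccl5* with *Ctsw*, *Prf1* with *Cd8b1*, and *Gzma* with *Gzmk*. The places of *Nkg7* and *Srgn* depend on the transcript assumed, since with the shortest coding transcript of each gene *Srgn* was at 10.81 and *Nkg7* at 10.02. Of the granzyme members, *Gzmb* thus had the highest level in these libraries, which also hold RNA of other cells, and *Gzma* and *Gzmk* had low levels.

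**Figure D2:**
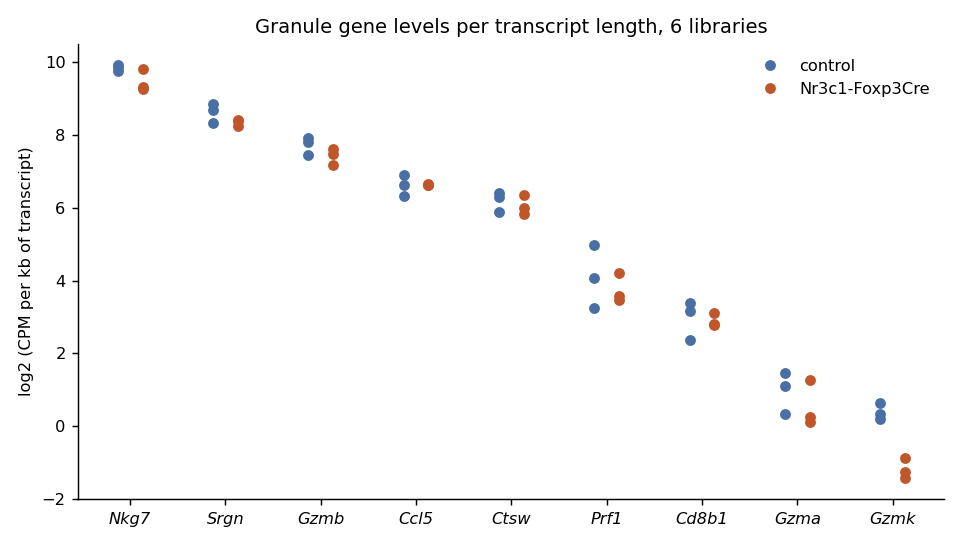
Log2 CPM per kb of transcript for the 9 granule genes, ordered by their mean, with a point for each library. *Nkg7* lies near 9.66 and *Gzmk* near -0.40, and the ordering of the genes holds in each library.

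*Gzmb* (ENSMUSG00000015437.5), which encodes the protease granzyme B that cleaves caspases and other substrates in target cells, lies on the minus strand of mm10 at chr14:56258838-56262260. Control libraries had 7.97, 8.45 and 8.33 log2 CPM, against 8.0, 7.71 and 8.15 in the Nr3c1-Foxp3Cre libraries. The groups overlapped through control replicate 1, which lay below Nr3c1-Foxp3Cre replicates 1 and 3. The log2 fold change was -0.30 (SE 0.15, 95% interval -0.64 to 0.048, limma unadjusted p = 0.0833, adjusted p = 1.0), close to the SD of 0.25 between control libraries and of 0.23 between Nr3c1-Foxp3Cre libraries. Leaving out one library moved the value between -0.44 without control replicate 1 and -0.17 without Nr3c1-Foxp3Cre replicate 2, and it was -0.20 without control replicate 2. In CPM the geometric mean was 304 in control and 248 in Nr3c1-Foxp3Cre Tregs.

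*Gzmk* (ENSMUSG00000042385.14), the gene of granzyme K, a protease with trypsin-like specificity, lies on the minus strand at chr13:113171608-113225908. Control libraries had 0.58, 0.73 and 1.02 log2 CPM, against -0.49, -0.89 and -1.05 in the Nr3c1-Foxp3Cre libraries. Each Nr3c1-Foxp3Cre library was below each control library. The log2 fold change of -1.58 (SE 0.44, 95% interval -2.58 to -0.59) had a limma unadjusted p of 0.00561 and an adjusted p of 1.0, and 0.428% of all genes had a lower log2 fold change. The values correspond to 1.49, 1.65 and 2.03 CPM in control Tregs and 0.714, 0.540 and 0.483 CPM in Nr3c1-Foxp3Cre Tregs. The Nr3c1-Foxp3Cre values all lay under the authors' CPM limit for keeping a gene, so the separation is given as a description. At such low levels the size of the difference depends on how low values are treated, and it was -0.78 with log2 values below 0 set to 0 and -0.79 on the log2(CPM + 1) scale, with the groups still apart. The long gene model of *Gzmk* overlaps *Esm1* on the opposite strand, but the annotated exons of both genes share 0 bases, and *Esm1* had a log2 fold change of 0.63 with overlapping groups.

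*Gzma* (ENSMUSG00000023132.8), the gene of granzyme A, the other trypsin-like granzyme, lies near *Gzmk* at chr13:113093825-113100981. Control libraries had 0.32, 1.09 and 1.45 log2 CPM, against 0.26, 0.11 and 1.27 in the Nr3c1-Foxp3Cre libraries. Both groups spanned nearly the same range. Its log2 fold change of -0.41 (SE 0.48, limma adjusted p = 1.0) did not reach the within-group SDs of 0.58 in control and 0.63 in Nr3c1-Foxp3Cre libraries, and the 95% interval from -1.49 to 0.67 includes changes in both directions. With one library left out it lay between -0.77 (without Nr3c1-Foxp3Cre replicate 3) and -0.16 (without control replicate 3). Among the other granzyme genes, 1 of 7, *Gzmc*, had values, with means of 1.65 ± 0.57 in control and 1.23 ± 0.59 in Nr3c1-Foxp3Cre Tregs on the log2 CPM scale (SD, n = 3 each), and with overlapping groups. Its reads may be uncertain because the granzyme genes of this chromosome 14 cluster resemble each other.

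*Prf1* (ENSMUSG00000037202.6), the perforin gene at chr10:61297833-61304680 on the plus strand, was the most variable of the well expressed members. Control libraries had 5.37, 6.28 and 4.56 log2 CPM, against 4.88, 4.78 and 5.52 in the Nr3c1-Foxp3Cre libraries. All Nr3c1-Foxp3Cre values fell inside the range of the control values. The log2 fold change of -0.34 (SE 0.38, limma adjusted p = 1.0) was smaller than the control SD of 0.86, and it was 0.10 without control replicate 2 and -0.76 without control replicate 3. Control replicates 2 and 3 were at 77.7 and 23.5 CPM, a wider gap than that between the geometric means of 42.2 CPM in control and 33.4 CPM in Nr3c1-Foxp3Cre Tregs.

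The 250 bases before the RefSeq start sites of the most abundant granzyme gene, of the member whose groups did not overlap, of the perforin gene and of *Nkg7*, the other member with an unadjusted p under 0.05, are shown to set these genes beside the receptor deleted. They are given 5′ to 3′ on the strand of the gene, from RefSeq on GRCm38.p6, the assembly of mm10: chr14:56262335-56262584 (*Gzmb*), chr13:113180966-113181215 (*Gzmk*), chr10:61297586-61297835 (*Prf1*) and chr7:43436888-43437137 (*Nkg7*). Capitals mark matches on either strand to a GR hexamer (AGAACA), a RUNX core (TGTGGT) or a T-box element (AGGTGTGA).

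Gzmb: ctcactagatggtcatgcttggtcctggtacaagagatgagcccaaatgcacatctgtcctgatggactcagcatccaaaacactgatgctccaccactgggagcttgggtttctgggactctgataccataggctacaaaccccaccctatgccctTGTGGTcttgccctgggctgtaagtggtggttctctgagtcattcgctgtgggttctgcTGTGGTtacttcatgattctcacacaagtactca

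Gzmk: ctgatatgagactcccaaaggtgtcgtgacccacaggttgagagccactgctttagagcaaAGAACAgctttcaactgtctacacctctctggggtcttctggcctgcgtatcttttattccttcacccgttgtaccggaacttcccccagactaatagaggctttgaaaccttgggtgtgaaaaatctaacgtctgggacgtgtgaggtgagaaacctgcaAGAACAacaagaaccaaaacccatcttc

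Prf1: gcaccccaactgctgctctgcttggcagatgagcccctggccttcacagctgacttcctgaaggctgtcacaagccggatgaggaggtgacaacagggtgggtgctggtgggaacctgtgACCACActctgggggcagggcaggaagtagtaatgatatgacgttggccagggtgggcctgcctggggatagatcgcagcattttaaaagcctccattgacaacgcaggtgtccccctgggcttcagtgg

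Nkg7: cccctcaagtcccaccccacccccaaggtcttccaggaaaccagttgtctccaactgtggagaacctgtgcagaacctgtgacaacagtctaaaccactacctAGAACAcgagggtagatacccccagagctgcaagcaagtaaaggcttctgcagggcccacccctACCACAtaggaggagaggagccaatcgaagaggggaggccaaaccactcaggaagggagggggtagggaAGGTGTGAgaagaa

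The *Gzmk* window holds 2 GR hexamers, from -189 to -184 and from -28 to -23 relative to the RefSeq start site at 113180965. On the minus strand, the GENCODE gene model of *Gzmk* starts further upstream, at 113225908, so this window lies inside that model. The *Nkg7* window holds 1 GR hexamer, from -147 to -142, and the *Gzmb* and *Prf1* windows hold 0. Among the windows not printed, the hexamer is also in that of *Gzma*, whose groups overlapped, from -58 to -53, in 1 of the 2 windows of *Srgn*, from -65 to -60, and in that of *Cd8a*, from -189 to -184. RUNX cores number 2 in *Gzmb*, 1 in *Prf1*, 1 in *Nkg7*, 1 in *Gzma*, 1 in the same window of *Srgn* and 0 in *Gzmk* and *Cd8a*, and *Nkg7* has a T-box element from -14 to -7. The marked matches in these 4 windows do not overlap one another. Among 32851 promoter windows of the same length, 16.1% hold a GR hexamer, 14% a RUNX core and 1.12% a T-box element. Of the 10 granule genes, 7 have a window in the table, and none of these 8 windows (*Srgn* has 2) holds the full GR palindrome, AGAACA and TGTTCT separated by 3 bases, which is in 0.00913% of all windows. A match of letters is a description and does not show binding.

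*Srgn* (ENSMUSG00000020077.14), the serglycin gene on the minus strand at chr10:62493833-62527451, was at 9.11, 9.66 and 9.48 log2 CPM in the control libraries and at 9.19, 9.03 and 9.18 in the Nr3c1-Foxp3Cre libraries. Again control replicate 1 alone made the groups overlap. The log2 fold change was -0.28 (SE 0.14, 95% interval -0.59 to 0.035, limma unadjusted p = 0.0755, adjusted p = 1.0), about the size of the control SD of 0.28 and larger than the Nr3c1-Foxp3Cre SD of 0.089. It was -0.16 without control replicate 2 (limma unadjusted p = 0.256) and -0.43 without control replicate 1 (limma unadjusted p = 0.00367, adjusted p = 0.969).

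*Nkg7* (ENSMUSG00000004612.9), which encodes a granule membrane protein needed for efficient degranulation, lies on the plus strand at chr7:43437073-43438249. Control libraries had 9.68, 9.75 and 9.59 log2 CPM, against 9.10, 9.14 and 9.63 in the Nr3c1-Foxp3Cre libraries. Nr3c1-Foxp3Cre replicates 1 and 2 lay below all controls and replicate 3 within their range. The log2 fold change of -0.39 (SE 0.15, 95% interval -0.72 to -0.061) had a limma unadjusted p of 0.0250 and an adjusted p of 1.0. It exceeded the SD of 0.084 between control libraries and that of 0.30 between Nr3c1-Foxp3Cre libraries, but the unadjusted p under 0.05 depended on single libraries. Without Nr3c1-Foxp3Cre replicate 1 the value was -0.29 (limma unadjusted p = 0.103), without replicate 2 of that group -0.31 (limma unadjusted p = 0.0877), without control replicate 2 -0.35 (limma unadjusted p = 0.0590), and without Nr3c1-Foxp3Cre replicate 3 -0.56 (limma unadjusted p = 0.00119, adjusted p = 0.627). Scaled to the CD3 genes, *Nkg7* had a limma unadjusted p of 0.0675, and without a mean-variance trend one of 0.0641.

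*Ctsw* (ENSMUSG00000024910.5), a cysteine protease gene of cytotoxic lymphocytes at chr19:5465043-5468507, was at 6.20, 6.72 and 6.61 log2 CPM in the control libraries and at 6.66, 6.30 and 6.15 in the Nr3c1-Foxp3Cre libraries. *Fibp* overlaps *Ctsw* on the opposite strand with 0 shared exonic bases. The groups overlapped almost entirely, with a log2 fold change of -0.14 (SE 0.17, limma adjusted p = 1.0) that lay between -0.29 (without control replicate 1) and -0.030 (without Nr3c1-Foxp3Cre replicate 3) when one library was left out. *Ccl5* (ENSMUSG00000035042.2), a chemokine that effector lymphocytes store and release, lies at chr11:83525778-83530518. Control libraries had 5.42, 5.72 and 5.98 log2 CPM, against 5.73, 5.72 and 5.74 in the Nr3c1-Foxp3Cre libraries. The Nr3c1-Foxp3Cre values, all inside the control range, differed by less than the control libraries did, and the log2 fold change was 0.022 (SE 0.15, 95% interval -0.32 to 0.36).

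*Cd8b1* (ENSMUSG00000053044.8), at chr6:71322788-71337494, encodes the β chain of CD8, which conventional CD4+ Tregs lack. Control libraries had 2.93, 3.96 and 3.74 log2 CPM, against 3.67, 3.38 and 3.35 in the Nr3c1-Foxp3Cre libraries. The Nr3c1-Foxp3Cre libraries all fell inside the control range, with a log2 fold change of -0.077 (SE 0.29, 95% interval -0.72 to 0.57, limma adjusted p = 1.0). Per kb of transcript *Cd8b1* was at 3.87%, 5.08% and 5.14% of the level of *Cd4* in the control libraries and at 4.41%, 4.99% and 4.09% in the Nr3c1-Foxp3Cre libraries. Some *Cd8b1* RNA was therefore present in every library, at a share of *Cd4* that overlapped between the groups. *Cd8a* has no value here, so CD8 T cell RNA is judged in this paragraph on *Cd8b1* alone. After adding *Cd8b1* to the model, the fold changes on the log2 scale were -0.26 for *Gzmb*, -0.24 for *Srgn*, -0.39 for *Nkg7* and -1.55 for *Gzmk*, with limma adjusted p from 0.699 for *Gzmk* to 0.996 for *Gzmb*.

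**Figure D3:**
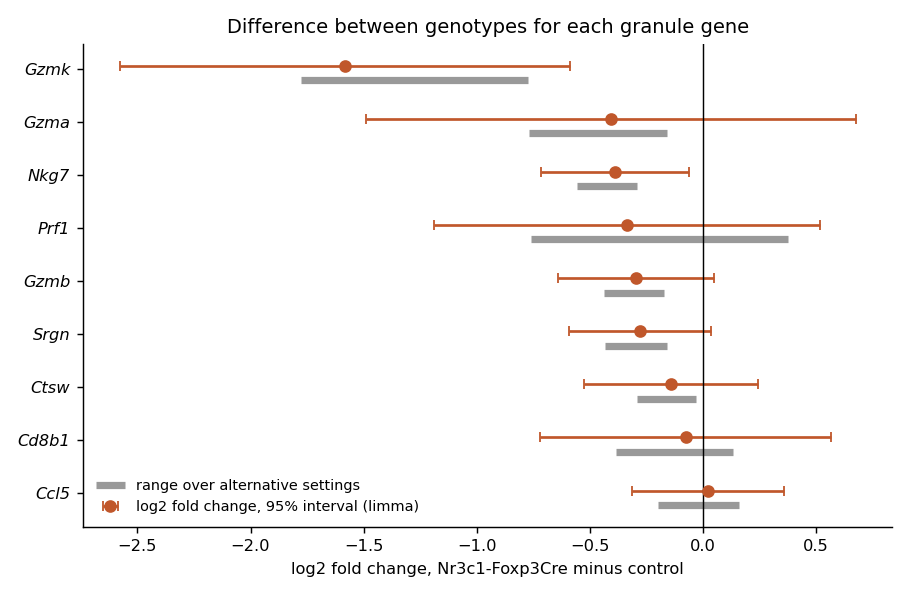
Log2 fold change of each granule gene in Nr3c1-Foxp3Cre against control Tregs with its 95% interval from limma (points and bars), and the range of its value over the alternative settings (gray). The intervals of *Gzmk* and *Nkg7* lie below 0 before adjustment over all genes, and the gray ranges of *Prf1*, *Ccl5* and *Cd8b1* cross 0.

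The libraries also differed in RNA of other cells. The 7 melanoma markers summed to 9134, 3409 and 6850 CPM in the control libraries and 6189, 9537 and 3802 CPM in the Nr3c1-Foxp3Cre libraries, and the 12 T cell and Treg markers to 6554, 8824 and 7196 CPM and to 7096, 6537 and 7341 CPM. Within each group *Gzmb* was lowest in the library with the most melanoma RNA (control replicate 1 and Nr3c1-Foxp3Cre replicate 2) and highest in the library with the least. A model that also held the mean of the melanoma markers gave log2 fold changes of -0.31 for *Gzmb* (limma adjusted p = 0.685), -0.29 for *Srgn* (adjusted p = 0.749) and -0.40 for *Nkg7* (adjusted p = 0.513). When every gene was set against the mean of *Cd3d*, *Cd3e* and *Cd3g* of its library, *Gzmb* was at -0.95, -0.84 and -0.91 in control and at -1.12, -1.32 and -1.03 in Nr3c1-Foxp3Cre Tregs. *Srgn* was at 0.19, 0.37 and 0.24 in control Tregs and at 0.067, 0.010 and -3.04e-05 in Nr3c1-Foxp3Cre Tregs. On that scale 3 of the 9 granule genes, *Gzmb*, *Srgn* and *Gzmk*, had groups that did not overlap, against 7.12% of all genes, but the log2 fold changes of *Gzmb* and *Srgn* were -0.26 and -0.24, with limma adjusted p = 1.0.

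Of the 8 CD8 T cell markers 5 had values, all with lower means in Nr3c1-Foxp3Cre Tregs, against 50.5% of all genes. Among them 1, *Xcl1* (-0.59 on the log2 scale), had a limma unadjusted p under 0.05, against 3.26% of all genes. *Crtam*, an adhesion receptor gene of activated T and NK cells, was at 1.12, 1.46 and 1.94 log2 CPM in control and 0.21, 0.65 and 1.62 in Nr3c1-Foxp3Cre Tregs. The 5 markers summed to between 27.9 and 44.1 CPM in control and 23.5 and 32.9 CPM in Nr3c1-Foxp3Cre Tregs, and *Cd8a*, *Eomes* and *Klrd1* were without a value. Their part in the granule gene values was not tested beyond the *Cd8b1* covariate. Of 9 NK cell markers only *Tyrobp* and *Fcer1g*, which myeloid cells share, had values, and *Ncr1*, *Klrb1c* and the Ly49 genes listed had none. *Tyrobp* had groups without overlap, against 7.41% of all genes in either direction and 3.73% in the lower one. Its log2 fold change was -0.35 (limma unadjusted p = 0.145). Summed, the pair lay between 22.3 and 34.5 CPM in control and 18.2 and 24.7 CPM in Nr3c1-Foxp3Cre Tregs. All 10 macrophage and monocyte markers had lower means in Nr3c1-Foxp3Cre Tregs, but none had an unadjusted p under 0.05, and their sums of 374 to 561 CPM and 271 to 544 CPM overlapped. Among those with a mean of at least 1 log2 CPM, the largest log2 differences were -0.91 for the Fc receptor gene *Fcgr1* and -0.72 for the complement gene *C1qc*. *Mpeg1*, below that mean, had -1.73 (SE 1.01) with overlapping groups. Of the γδ T cell markers 1 of 6, *Trdc*, had values, at 0.504 to 2.57 CPM in control and 1.64 to 12.2 CPM in Nr3c1-Foxp3Cre Tregs. The part of these cells in the granule gene values was not tested.

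**Figure D4:**
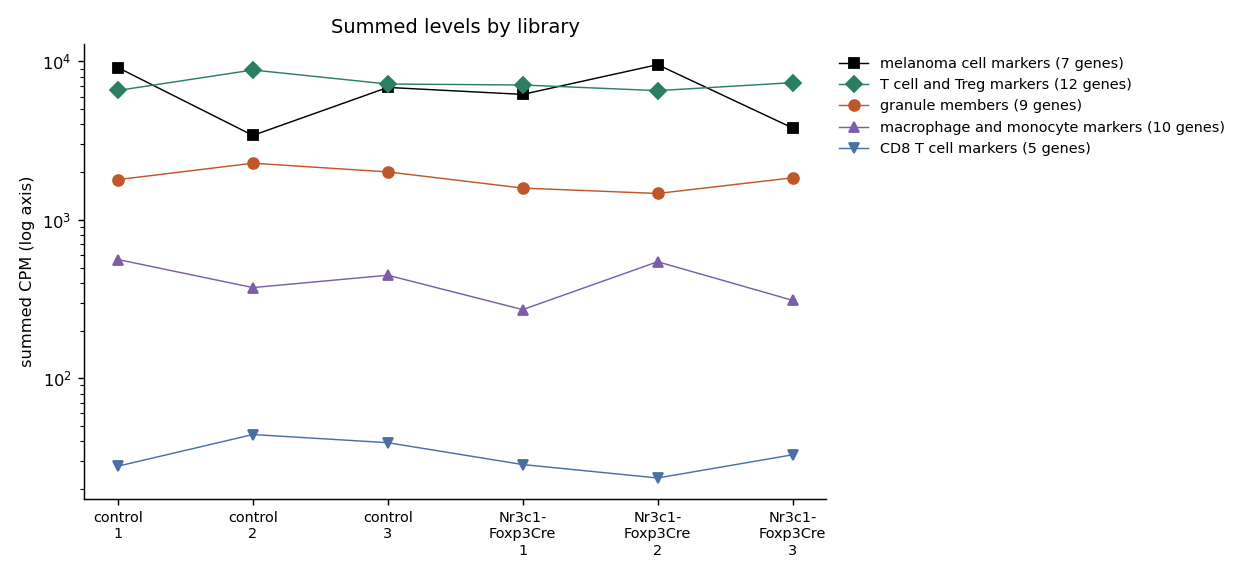
Summed CPM, on a log axis, of the 9 granule genes and of 4 lists of cell type markers in each of the 6 libraries. The melanoma sum falls to 3409 and 3802 CPM in control replicate 2 and Nr3c1-Foxp3Cre replicate 3, where the granule sum is highest within its group (2277 and 1841 CPM).

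Genes that mature, guard or release granule proteases were examined as lists chosen, like the members, with earlier results of these data known. Their counts are therefore descriptions, given beside the shares over all genes. All 11 genes of granzyme processing and inhibition had values, 9 with lower and 2 with higher means in Nr3c1-Foxp3Cre Tregs and a median log2 fold change of -0.33. None passed an adjusted p of 0.05, 4 had an unadjusted p under 0.05, all lower, against 1.65% of all genes lower at that threshold, and 2 had groups without overlap, against 3.73% lower among all genes. *Serpinb9*, which encodes the intracellular inhibitor of granzyme B, was at 6.01, 6.29 and 5.77 log2 CPM in the control libraries and at 5.54, 5.10 and 5.60 in the Nr3c1-Foxp3Cre libraries (log2 fold change -0.61, SE 0.18, limma unadjusted p = 0.00696, adjusted p = 1.0). *Ctsc*, which encodes the dipeptidyl peptidase that activates granzyme precursors, was at 8.07, 7.85 and 7.97 log2 CPM in the control libraries and at 7.46, 7.75 and 7.69 in the Nr3c1-Foxp3Cre libraries (log2 fold change -0.33, SE 0.11, limma unadjusted p = 0.0146, adjusted p = 1.0). For both genes every Nr3c1-Foxp3Cre library lay below every control library. The other 2 genes with an unadjusted p under 0.05 were *Serpinb6b*, with a log2 fold change of -0.46 (limma unadjusted p = 0.0343), and the cathepsin gene *Ctsh*, with -0.36 (limma unadjusted p = 0.0397). *Cst7*, which encodes cystatin F, an inhibitor of cathepsin C, was at 6.63, 7.24 and 6.80 log2 CPM in the control libraries and 6.60, 6.27 and 6.66 in the Nr3c1-Foxp3Cre libraries, with overlapping groups. *Serpinb9b*, a paralog of *Serpinb9*, had a log2 fold change of -0.82 at a SE of 0.82.

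**Figure D5:**
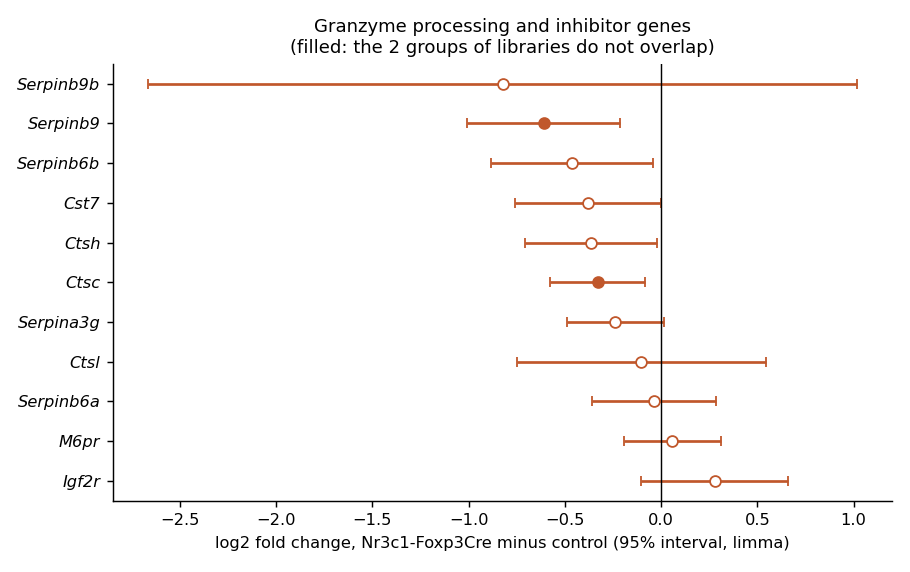
Log2 fold change with its 95% interval from limma for the 11 genes of granzyme processing and inhibition, filled where the groups of libraries do not overlap. *Serpinb9* and *Ctsc* are filled, at -0.61 and -0.33, and *M6pr* and *Igf2r* lie above 0.

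Of the 18 genes of granule transport and release, 17 had values, and 0 had an unadjusted p under 0.05 or groups without overlap. Among all genes these shares were 3.26% and 7.41%, so a count of 0 does not set so short a list apart. Their median log2 fold change was -0.045 and their range -0.21 to 0.10, with the largest differences for the lysosomal membrane protein gene *Lamp2* and for *Snap23* (-0.17), a SNARE gene. *Rab27a*, the GTPase that docks granules, had means of 6.86 ± 0.073 in control and 6.74 ± 0.27 in Nr3c1-Foxp3Cre Tregs on the log2 CPM scale (SD, n = 3 each), and *Unc13d*, the priming factor Munc13-4, at 7.39 ± 0.28 and 7.45 ± 0.19.

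Among 8 genes of death ligands, death receptors and effector cytokines, 6 had higher and 2 lower means, against 50.5% of all genes below 0. The higher ones include the receptor genes *Fas* (0.088) and *Tnfrsf10b* (0.054). *Tnf* alone had groups without overlap, against 7.41% of all genes in either direction and 3.69% in the higher one. *Tnf* was at 3.68, 3.69 and 3.67 log2 CPM in the control libraries and at 4.31, 4.09 and 4.83 in the Nr3c1-Foxp3Cre libraries (log2 fold change 0.72, SE 0.22, limma unadjusted p = 0.00806, adjusted p = 1.0). *Lta*, *Ifng* and *Fasl* had log2 fold changes of 0.28, 0.20 and -0.13, each with overlapping groups. Of the 7 chemokines and receptors related to *Ccl5*, 1 had an unadjusted p under 0.05, against 3.26% of all genes. This was *Xcl1*, a chemokine that attracts dendritic cells and is also among the CD8 T cell markers, with a log2 fold change of -0.59 (SE 0.24, limma unadjusted p = 0.0335) and overlapping groups. The chemokine gene *Ccl4* followed at -0.19 (SE 0.18).

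Of 11 transcription factor genes of the cytotoxic program, 9 had values, and 1, *Id2*, had groups without overlap, against 7.41% of all genes. *Id2*, which encodes an inhibitor of E proteins, was at 9.09, 9.64 and 9.22 log2 CPM in the control libraries and at 8.78, 8.47 and 8.64 in the Nr3c1-Foxp3Cre libraries, without overlap (log2 fold change -0.69, SE 0.15, limma unadjusted p = 0.00122, adjusted p = 0.544). *Prdm1*, the gene of Blimp-1, had a log2 fold change of -0.20 (SE 0.17). *Tbx21* and *Runx3*, whose products activate granzyme and perforin genes in CD8+ T cells, had log2 fold changes of -0.0074 and 0.086 with overlapping groups, and *Eomes* was without a value.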

How the data were processed

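The 6 libraries were grouped by the genotype that their labels give, and the members and lists were chosen with earlier results of these data known. The authors used Cutadapt for trimming, STAR for alignment to mm10 and RSEM with GENCODE M21 for counting, then filtered genes under their CPM limit and quantile normalized. The deposited values are log2 CPM from the authors. They sum to 999633 or 999634 CPM per library on the linear scale, and pairs of libraries correlated at r = 0.957 to 0.980 across genes, so none repeated another. Counts were not used here, so the weights of voom were not recomputed, and depth and its intervals are unknown.

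A model of genotype alone was fitted to the 12153 genes by limma 3.58.1 in R 4.3.3 (lmFit, then eBayes with trend), and p-values were adjusted by the Benjamini-Hochberg method across the whole table, with a threshold of 0.05. The fit was tested on simulated data. Exact two-sided permutation tests of 3 libraries against 3 cannot go below p = 0.1, which *Gzmk* alone among the members reached. Nothing in the labels says that libraries came from separate animals, so p-values measure the spread between these libraries. Positions, exons and transcript lengths came from GENCODE M21 on mm10 and promoter windows from RefSeq on GRCm38.p6. Genes named were all members and, per list, genes that passed the adjusted threshold, those without overlap at an unadjusted p under 0.05, and the 2 largest log2 fold changes at a mean of at least 1 log2 CPM, together with others chosen after their values were seen. Alternatives were other limma settings, weights, low-value treatments, normalizations, covariates, the replicate block and leaving out each library. *Cd8a* has no value here, so the covariate planned on both CD8 genes was *Cd8b1* alone.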

Additional observations from a re-analysis of the deposited data

How the results depend on the processing

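With the values as reported, 7 genes of 12153 were called, 1 of them higher, and 0 of the 9 granule genes, of which 2 had an unadjusted p under 0.05. No granule gene was called under any of the 18 alternatives, and between 1 and 4 of the granule genes passed 0.05 before adjustment, with 4 (*Gzmb*, *Gzmk*, *Nkg7* and *Srgn*) under library weights, with the melanoma marker covariate and without control replicate 1. In those 3 settings 11.3%, 5.47% and 3.18% of all genes had such a p, against 3.26% as reported. Over all genes the count was 0 without a mean-variance trend, 19 (7 higher) with library weights, 18 (4 higher) with the melanoma marker covariate, 12 (3 higher) with *Cd8b1* as a covariate, and 4, 1 of them higher, when scaled to the CD3 genes, where groups without overlap and lower made up 2.04% of genes against 3.73%. Leaving out one library gave from 0 to 8 called genes, with 0 without control replicate 3 or Nr3c1-Foxp3Cre replicate 2 and 1 without Nr3c1-Foxp3Cre replicate 1 or 3. When the replicate block was added, 0 genes were called and 275 had an unadjusted p under 0.05, and the same 2 granule genes, *Gzmk* and *Nkg7*, had an unadjusted p under 0.05. Deviations from the group means correlated across genes at r from -0.33 to -0.025 in same-numbered libraries and from -0.27 to 0.36 in other pairs. So few values cannot show whether same-numbered libraries share a batch, and whether they share more than a number is unknown. The count of granule genes without overlap was 1 as reported, 0 with a minimum mean of 1 log2 CPM, which removed *Gzmk* and *Gzma*, 3 when scaled to the CD3 genes, and from 1 to 4 with one library left out (4 without control replicate 1, and 3 without control replicate 3 or Nr3c1-Foxp3Cre replicate 3), where from 13.2% to 20% of all genes do not overlap. The log2 fold changes of the members kept their sign in 153 of 159 values. The sign turned for *Prf1* with library weights (0.38) and for *Ccl5* with library weights (-0.20). Leaving out one library gave -0.76 to 0.10 for *Prf1*, -0.12 to 0.16 for *Ccl5*, and -0.38 to 0.13 for *Cd8b1*, which was 0.023 without control replicate 3. The cause was not tested. Depth is unknown, so how far it limits low genes such as *Gzmk* cannot be stated.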

Other observations

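The genes whose values followed those of *Gzmb* most closely over the 6 libraries, among 11415 genes with a mean of at least 1 log2 CPM, were *Hgs* (Pearson r = 0.991), *Slc25a20* (0.984), *Ppib* (0.983), *Ptpn6* (0.978) and *Atn1* (0.978). For *Prf1* they were *Map2k6* (Pearson r = 0.997), *Gm3839* (0.992), *Gpr35* (0.990), *Kcnq5* (0.981) and *Ostf1* (0.977). These are the highest of 11415 values on 6 points each and are given as a description. Among the granule genes, *Cd8b1* varied over the same 6 libraries most like *Ctsw* (r = 0.884) and *Srgn* (r = 0.792) and least like *Nkg7* (r = -0.025), and the libraries share their differences in T cell and melanoma RNA.

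*Ccr8*, a chemokine receptor of tumor Tregs, was the 1 of 12 T cell and Treg markers whose groups did not overlap, against 7.41% of all genes. Its log2 fold change was -0.53 (SE 0.14, limma unadjusted p = 0.00457, adjusted p = 1.0). *Dusp1*, a glucocorticoid-induced phosphatase gene, had a log2 fold change of -0.56 without overlap (limma adjusted p = 0.652). *Fkbp5*, the remaining gene of the glucocorticoid receptor and response list, had -0.16 (SE 0.13, limma unadjusted p = 0.252) with overlapping groups. *Ctla4*, an inhibitory receptor gene of Tregs, had -0.40 (SE 0.21). Among markers of other cells, log2 fold changes were -0.77 for *Tlr3* and 0.16 for *Xcr1* (cDC1), 0.045 for *Cd79b* (B cells), 0.079 for *Kit* (mast cells), and 0.15 for *Dct* and -0.24 for *Mitf* (melanoma), all with overlapping groups.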
